A study of Caenorhabditis elegans with 12 samples.

Results

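Histone transcripts were measured with 62 of the 22625 probe sets of an Affymetrix expression array of Caenorhabditis elegans. A probe set was taken as a histone probe set when every gene symbol that the array annotation lists for it begins with his- or hil-. These 62 probe sets name 80 histone genes, all 80 of which are in a RefSeq gene table that also holds 80 such genes. A single symbol was listed for 39 of the probe sets, and 23 listed several symbols, up to 14. Whole adult worms of the wild-type strain N2 were fed HT115 bacteria for RNA interference (RNAi) for 3 days, beginning on day 1 of adulthood, and were collected as day 3 adults. Their eggs and larvae were washed away with M9 buffer during that time. The study had 4 groups of 3 arrays. One group was given RNAi against hsp-6 and hsf-1 together (hsp-6;hsf-1, here hsf-1 double RNAi), and another is labelled as given RNAi against hsp-6 and dve-1 (hsp-6;dve-1, here dve-1-labelled double RNAi). A further group was given hsp-6 RNAi alone, and the control group was given the empty vector (EV). The product of hsp-6 is an Hsp70 chaperone of mitochondria. hsf-1 is the gene of the heat shock transcription factor, and dve-1 encodes a homeodomain factor of the response to unfolded proteins in mitochondria.

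Histones package DNA. Pairs of the core histones H2A, H2B, H3 and H4 form the nucleosome, and linker histones of the H1 family bind the DNA between nucleosomes. Most core histone genes are made in bulk when DNA is replicated, lie in clusters of near-identical copies, and give mRNAs that end in a stem-loop instead of a poly(A) tail. H3.3 is a replacement form of H3 that is placed into chromatin outside replication, and in C. elegans linker histones are encoded by his-24 and the hil genes. In the adult hermaphrodite the germline is the tissue in which cells divide. The labels name a 3′ labelling kit, and how far that chemistry reports mRNAs without a poly(A) tail was not tested.

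By class, 13 of the 62 probe sets were for linker histones, 9 for H2A, 10 for H2B, 12 for H3, 6 for H3.3 and H3-like genes, and 12 for H4. Values are log2 GCRMA values, the deposited unit, in which a difference of 1 is a 2-fold difference. A probe set was tested when it lay above log2 4 in at least 3 of the 12 arrays, which held for 58 histone probe sets and for 12057 probe sets in all. The 4 histone probe sets that failed, for hil-8, his-69, his-73 and one listing his-40 and his-17, never exceeded 3.2. Of the 58 tested, 56 lay above 4 in every array. The 2 exceptions were his-70 and the H2B probe set listing his-44, his-11 and his-15. The gene copies are close in sequence: 40 of the 62 probe sets carry the suffix that Affymetrix gives to probe sets whose probes may match other transcripts, and 5 carry the suffix for several transcripts of a family. A value of such a probe set cannot be divided among the genes it lists. In the RefSeq table, 67 of the 80 genes fell into 13 groups of neighbours with at most 5 other genes between them.

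The arrays themselves were alike in level, with medians between 7.94 and 8.11 over the tested probe sets and 49.07% to 52.93% of all probe sets above log2 4. The hsp-6 transcript averaged 9.63 ± 0.41 with hsf-1 double RNAi, 9.82 ± 0.60 with dve-1-labelled double RNAi, 6.84 ± 0.21 with hsp-6 RNAi and 11.12 ± 0.17 with EV (SD, n = 3 each). Its other probe set read 6.53 ± 0.68, 6.78 ± 0.58, 4.53 ± 0.20 and 8.45 ± 0.52 in the same order. Both double RNAi groups thus held more hsp-6 transcript than hsp-6 RNAi alone. The part of this in any difference of a double RNAi group from hsp-6 RNAi was not tested. dve-1 read against its label on its brighter probe set: it averaged 6.76 ± 1.24 with hsf-1 double RNAi, 8.06 ± 0.88 in the dve-1-labelled arrays, 5.53 ± 0.39 with hsp-6 RNAi and 5.51 ± 0.06 with EV. The other dve-1 probe set was nearly flat, at 4.82 ± 0.32, 4.85 ± 0.40, 4.61 ± 0.03 and 4.61 ± 0.05 in the same order. Neither was lower in the dve-1-labelled arrays, so directions drawn from those arrays rest on the label alone. hsf-1 read 6.92 ± 0.29, 7.67 ± 0.70, 7.82 ± 0.17 and 8.57 ± 0.28 in the same order. Replicate 3 of hsf-1 double RNAi and replicate 2 of dve-1-labelled double RNAi had the most extreme scores on the first principal component, 104.3 and 97. No pair of replicates was as close as 1 and 3 of hsp-6 RNAi, whose differences had an SD of 0.21 over the tested probe sets against 0.53 to 1.16 for the other pairs. The labels do not say that replicates were separate cultures, so each p-value reflects only how far these samples spread, which may be technical. In RNA of whole worms, fewer cells of a type and less RNA per cell cannot be told apart.

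A single histone probe set, of H4 genes, passed the test in any comparison. A probe set was called at a limma adjusted p below 0.05, with Benjamini-Hochberg adjustment over all 12057 probe sets tested. With hsp-6 RNAi against EV, 0 of 58 were called, where 2.74% of all tested probe sets were; 10 of the 58 (17.2%) had an unadjusted limma p under 0.05, 2 higher and 8 lower, where 21.6% of all did. With hsf-1 double RNAi against hsp-6 RNAi, limma called 0 of 58 against a background of 5.67%, and 4 (6.9%) had an unadjusted p under 0.05, where 24.7% of all did. With dve-1-labelled double RNAi against hsp-6 RNAi, limma called 0 against 5.74%, and 8 (13.8%) had an unadjusted p under 0.05, where 24.2% of all did. Between hsf-1 double RNAi and dve-1-labelled double RNAi, limma called 0 against 0.232%, with 1 (1.72%) at an unadjusted p under 0.05, where 2.3% of all did so. With hsf-1 double RNAi against EV, limma called 0 histone probe sets and 0% of all probe sets, although 21 of 58 (36.2%) and 29.8% of all had an unadjusted p under 0.05. With dve-1-labelled double RNAi against EV, limma called 1 of 58, a higher one, where 2.27% of all were called and 1.75% were called higher; 12 of 58 (20.7%) and 26.8% of all had an unadjusted p under 0.05. The same probe set was the only histone probe set called in a limma F test of any difference among the 4 groups, against 7.37% of all. In that test 15 of 58 histone probe sets had an unadjusted p under 0.05, where 3723 of all 12057 did. These comparisons share arrays (the hsp-6 RNAi arrays or the EV arrays), so their values are not independent of each other.

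**Figure D1:**
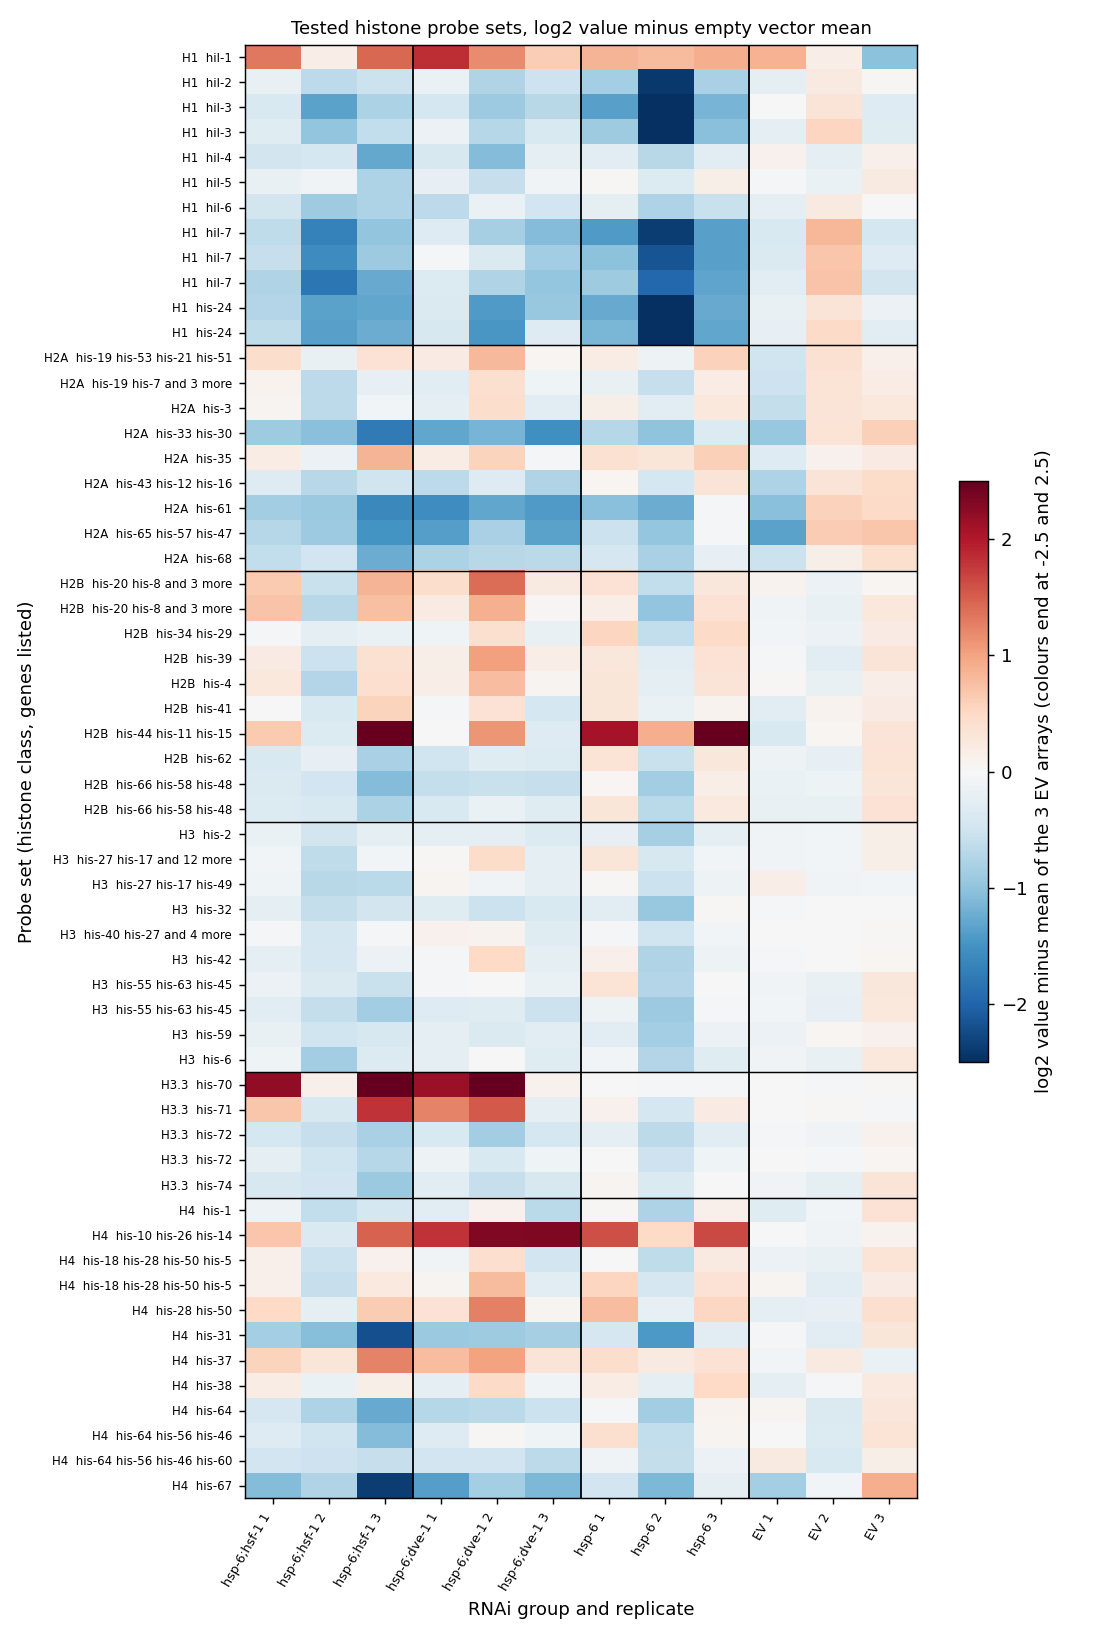
Every tested histone probe set (rows, ordered by histone class) in every array (columns, by RNAi group and replicate), coloured by its log2 value minus the mean of the 3 EV arrays, with colours ending at -2.5 and 2.5. The 8 linker probe sets of his-24, hil-2, hil-3 and hil-7 are lowest in hsp-6 RNAi replicate 2, and single probe sets of H2B (his-44, his-11, his-15), H4 (his-10, his-26, his-14) and H3.3-like his-70 stand out as high.

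The linker histones had the largest median difference of the 6 classes between hsp-6 RNAi and EV. The median difference over the 12 tested linker probe sets was -1.45 on the log2 scale, beside -0.20 for all 58 histone probe sets and -0.02 for all tested probe sets. The 3 hsp-6 RNAi arrays lay below the 3 EV arrays, without overlap, for 10 of the 12 linker probe sets. Over all histones this held for 14 of 58, where the share over all tested probe sets was 20.2%. The other 4 were 3 H3 probe sets and 1 of his-72.

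his-24, which encodes the H1.1 linker histone, has 2 probe sets. With the probe set without a suffix it read 10.61, 10 and 10.04 with hsf-1 double RNAi, 10.98, 9.93 and 10.38 with dve-1-labelled double RNAi, 10.08, 7.64 and 10.07 with hsp-6 RNAi, and 11.16, 11.66 and 11.19 with EV. All hsp-6 RNAi arrays were below all EV arrays, and replicate 2 was far below its 2 companions. The difference of hsp-6 RNAi from EV was -2.07 (SE 0.55, limma adjusted p = 0.074), which did not pass the threshold. The other his-24 probe set read 10.18, 9.45 and 9.58 with hsf-1 double RNAi, 10.42, 9.35 and 10.50 with dve-1-labelled double RNAi, 9.67, 7.16 and 9.52 with hsp-6 RNAi, and 10.60, 11.30 and 10.54 with EV. Its hsp-6 RNAi difference from EV was -2.03 (SE 0.58, limma adjusted p = 0.089). In both probe sets hsp-6 RNAi replicates 1 and 3 lay roughly 1 unit below the mean of the EV arrays, with replicate 2 lower still.

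hil-3 has 2 probe sets as well. The one with the cross-hybridization suffix read 10.16, 9.21 and 9.75 with hsf-1 double RNAi, 10.11, 9.64 and 9.85 with dve-1-labelled double RNAi, 9.19, 7.21 and 9.38 with hsp-6 RNAi, and 10.55, 10.87 and 10.22 with EV. Again every hsp-6 RNAi array was below every EV array, and both double RNAi groups lay between, apart from hsf-1 double RNAi replicate 2 at the level of the higher hsp-6 RNAi arrays. The difference from EV was -1.95 (SE 0.48, limma adjusted p = 0.058). The other read 9.30, 8.62 and 8.99 with hsf-1 double RNAi, 9.47, 8.89 and 9.23 with dve-1-labelled double RNAi, 8.73, 6.45 and 8.56 with hsp-6 RNAi, and 9.39, 10.14 and 9.30 with EV. Its hsp-6 RNAi difference from EV was -1.70 (SE 0.51, limma adjusted p = 0.099).

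hil-7 has 3 probe sets, all with the suffix for possible cross-hybridization. The one with the smallest limma adjusted p of any linker read 9.69, 8.65 and 9.34 with hsf-1 double RNAi, 10.02, 9.51 and 9.25 with dve-1-labelled double RNAi, 8.91, 7.96 and 8.98 with hsp-6 RNAi, and 9.95, 11.16 and 9.89 with EV. Replicate 2 was the lowest hsp-6 RNAi array and replicate 2 the highest EV array. The difference of hsp-6 RNAi from EV was -1.71 (SE 0.41, limma adjusted p = 0.052). The second hil-7 probe set read 9.45, 8.45 and 9.11 with hsf-1 double RNAi, 10, 9.65 and 9.15 with dve-1-labelled double RNAi, 8.99, 7.87 and 8.67 with hsp-6 RNAi, and 9.66, 10.71 and 9.69 with EV. Its hsp-6 RNAi arrays were also all below the EV arrays, with a difference of -1.50 (limma adjusted p = 0.066). The third read 9.18, 8.14 and 8.68 with hsf-1 double RNAi, 9.59, 9.19 and 8.98 with dve-1-labelled double RNAi, 9.05, 7.98 and 8.62 with hsp-6 RNAi, and 9.68, 10.66 and 9.48 with EV. In all 3 hil-7 probe sets the hsf-1 double RNAi arrays overlapped the hsp-6 RNAi arrays, and in the third the dve-1-labelled arrays did too. The hsp-6 RNAi arrays of the third were all below EV, with a difference of -1.39 (limma adjusted p = 0.08).

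hil-2 read 10.34, 9.87 and 9.98 with hsf-1 double RNAi, 10.35, 9.77 and 10.01 with dve-1-labelled double RNAi, 9.68, 8.11 and 9.71 with hsp-6 RNAi, and 10.28, 10.74 and 10.54 with EV. The hsp-6 RNAi arrays were below all 9 other arrays. The difference from EV was -1.35 (SE 0.37, limma adjusted p = 0.081). Over the class, limma called 0 of 12 linker probe sets with hsp-6 RNAi against EV, and 8 had an unadjusted p under 0.05, namely those of his-24, hil-2, hil-3 and hil-7. Without hsf-1 double RNAi replicate 3, which enters through the shared variance, the hil-7 probe set above and the hil-3 probe set with the suffix were called, and without replicate 2 of that group hil-7 alone was. Over all 12057 tested probe sets, 739 and 301 were then called for hsp-6 RNAi against EV, beside 330 with all arrays.

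**Figure D2:**
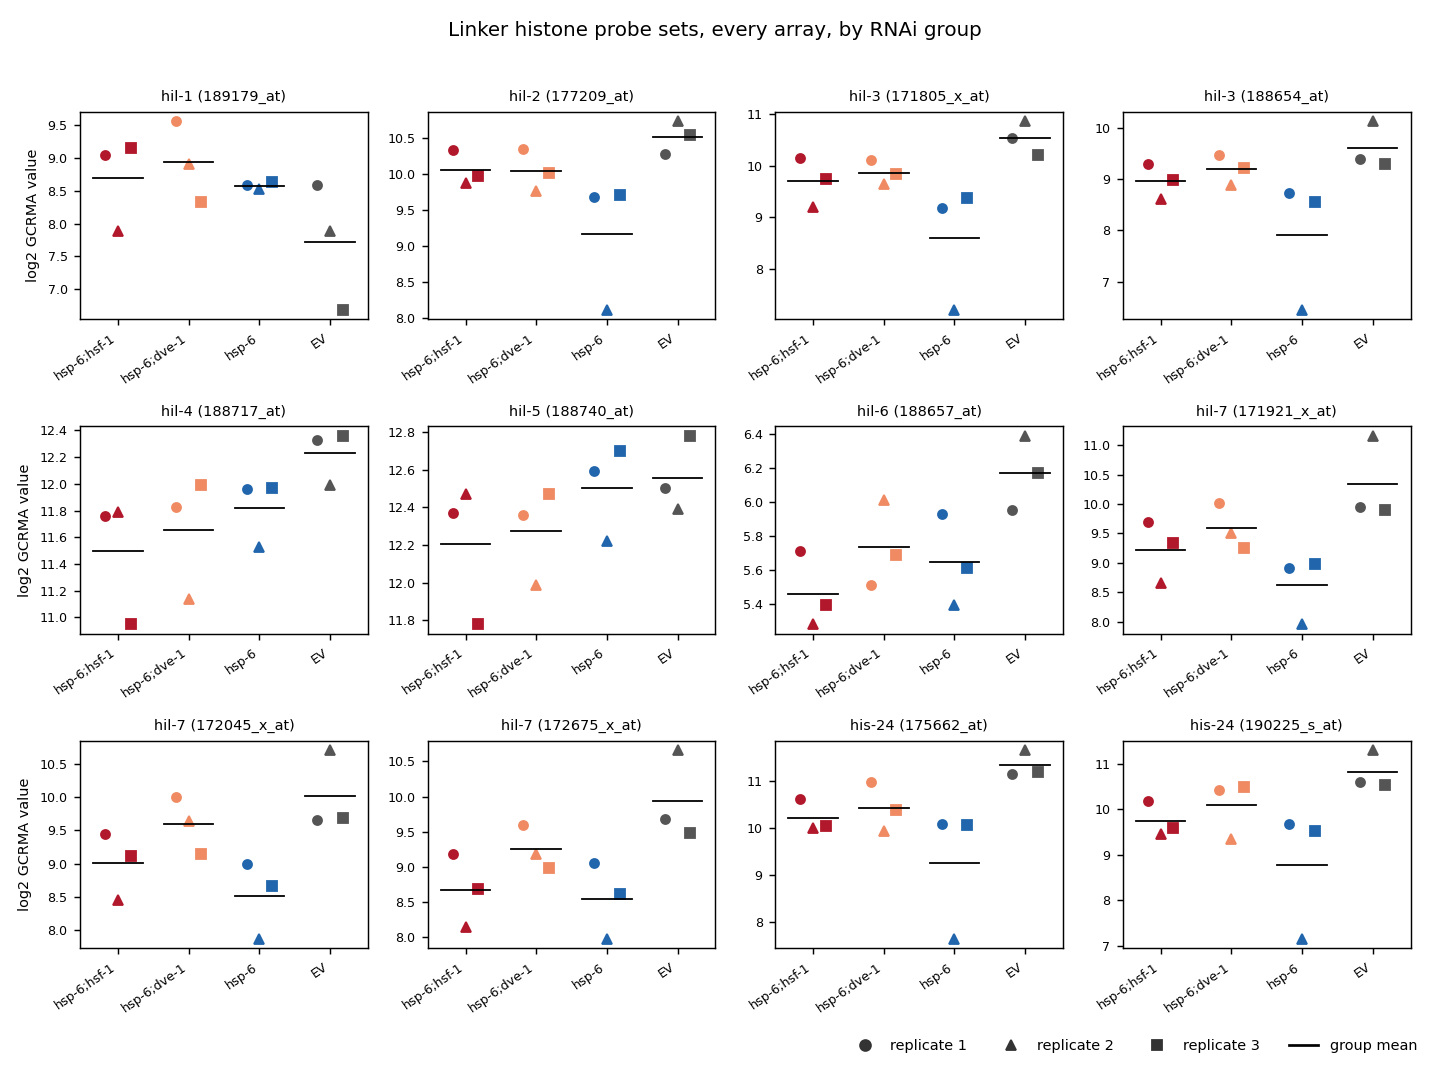
Log2 GCRMA values of the 12 tested linker histone probe sets, 1 panel each, in every array of the 4 RNAi groups (colours), with the marker shape giving the replicate and a bar the group mean of 3 arrays. In the panels of his-24, hil-2, hil-3 and hil-7 the hsp-6 RNAi arrays lie below all EV arrays, and hsp-6 RNAi replicate 2 (triangle) is the lowest of its group in all 12 panels.

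The remaining linker genes were less uniform. hil-4 read 11.76, 11.79 and 10.95 with hsf-1 double RNAi, 11.83, 11.14 and 11.99 with dve-1-labelled double RNAi, 11.96, 11.53 and 11.97 with hsp-6 RNAi, and 12.33, 11.99 and 12.36 with EV. Its hsp-6 RNAi arrays were all below EV, by a mean of only 0.40 (difference -0.40, limma adjusted p = 0.41). hil-6 read 5.71, 5.28 and 5.39 with hsf-1 double RNAi, 5.51, 6.01 and 5.69 with dve-1-labelled double RNAi, 5.93, 5.39 and 5.61 with hsp-6 RNAi, and 5.95, 6.39 and 6.17 with EV. This too was lower without overlap with hsp-6 RNAi, by -0.53 on the log2 scale (limma adjusted p = 0.25).

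hil-5, the linker probe set with the highest mean, read 12.37, 12.47 and 11.78 with hsf-1 double RNAi, 12.36, 11.99 and 12.47 with dve-1-labelled double RNAi, 12.59, 12.22 and 12.70 with hsp-6 RNAi, and 12.50, 12.39 and 12.78 with EV. The groups overlapped (difference of hsp-6 RNAi from EV -0.06, SE 0.21, limma adjusted p = 0.92). hil-1 was the one linker gene with a positive difference. It read 9.05, 7.88 and 9.15 with hsf-1 double RNAi, 9.56, 8.91 and 8.33 with dve-1-labelled double RNAi, 8.58, 8.52 and 8.63 with hsp-6 RNAi, and 8.59, 7.89 and 6.69 with EV. The EV arrays spanned nearly 2 units and overlapped the others, and the difference of 0.85 (SE 0.49, limma adjusted p = 0.33) lay within that spread.

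Against hsp-6 RNAi the median over the 12 linker probe sets was 0.55 with hsf-1 double RNAi, with 9 positive and 3 negative, and 0.93 with dve-1-labelled double RNAi, with 10 positive and 2 negative. limma called 0 of 12 in either comparison, with 2 and 6 at an unadjusted p under 0.05, hsf-1 double RNAi first. Against EV the class medians were -0.78 with hsf-1 double RNAi and -0.52 with dve-1-labelled double RNAi, again with 0 of 12 called by limma, and 5 and 1 at an unadjusted p under 0.05. The 5 were all lower. The 1 was hil-1, which was higher with dve-1-labelled double RNAi (1.21, limma adjusted p = 0.15), so no linker probe set had a decrease at that level there. The 8 probe sets of his-24, hil-2, hil-3 and hil-7 were grouped after their low hsp-6 RNAi values were seen, and these comparisons share the hsp-6 RNAi and EV arrays, so the values of the 8 are a description. As the median of the 8 relative to the EV mean, the arrays read -0.60, -1.35 and -0.95 with hsf-1 double RNAi, -0.33, -0.79 and -0.78 with dve-1-labelled double RNAi, and -1.08, -2.79 and -1.27 with hsp-6 RNAi. The EV arrays themselves read -0.23, 0.51 and -0.32. hsp-6 RNAi replicate 2 was the lowest by a wide gap, EV replicate 2 was the highest and stood above both other EV arrays, and hsf-1 double RNAi replicate 2 lay below hsp-6 RNAi replicates 1 and 3.

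The size of the linker difference depended on single arrays, hsp-6 RNAi replicate 2 among them. hsp-6 RNAi replicate 2 was the lowest of its group for 57 of the 58 histone probe sets, or 98.28%, against 43.67% of all tested probe sets. This included all 12 linker, all 41 core and 4 of the 5 H3.3 and H3-like probe sets. Its median offset from the mean of replicates 1 and 3 was -0.97 for linker histones, -0.70 for core histones and -0.01 for all tested probe sets. The median SD among hsp-6 RNAi arrays was 0.45 for histones and 0.17 for all probe sets, whereas among the other groups it was 0.28 to 0.39 for histones and 0.26 to 0.41 for all. Without replicate 2, the hsp-6 RNAi difference from EV ranged from -1.38 for a hil-7 probe set to -0.82 for hil-2 over the same 8, with limma adjusted p from 0.092 to 0.29. Without it, the differences of the 8 probe sets from hsp-6 RNAi were -0.17 to 0.42 with hsf-1 double RNAi and 0.35 to 0.77 with dve-1-labelled double RNAi, the lowest being of the opposite sign to the value of all 12 arrays. For the 3 hil-7 probe sets the smallest hsp-6 RNAi differences from EV in any alternative were -1.30, -1.16 and -1.03. Those came from other settings than leaving out hsp-6 RNAi replicate 2, which gave -1.38, -1.18 and -1.10.

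Other tissue markers differed in the same array. The mean log2 value of the 34 tested sperm genes was 6.27, 3.85 and 6.20 in the hsp-6 RNAi arrays, and their summed level, on the log2 scale, was 12.87, 9.68 and 12.68. The mean of the 8 tested embryo genes was 6.27, 5.03 and 6.38, while the summed level of the embryo list was highest in replicate 2, at 12.24 beside 11.40 and 11.41. The embryo list had a median difference of -1.64 for hsp-6 RNAi against EV. Of its 8 genes limma called 0, beside 2.74% of all tested probe sets, and 5 had an unadjusted p under 0.05, beside 21.6%. Its summed level was 11.04 to 11.58 with hsf-1 double RNAi, 11.39 to 11.78 with dve-1-labelled double RNAi, 11.40 to 12.24 with hsp-6 RNAi and 10.96 to 11.52 with EV. Of 18 embryo genes, 16 had a probe set and 8 of these lay below 4 in every array (end-1, end-3, med-1, sdz-19, sdz-23, sdz-38, cnd-1 and hlh-26). The germline list (20 of 20 genes tested) had a summed level of 14.73 to 14.83 with hsp-6 RNAi and 14.97 to 15.18 with EV. Its median difference was -0.35. Of the 20, limma called fbf-2 lower (-1.77, adjusted p = 0.049), where 93 of all 12057 tested probe sets were called lower. The oocyte and eggshell list (15 of 16 tested) had 16.76 to 16.84 with hsp-6 RNAi and 16.59 to 17.01 with EV, and pqn-74 lay below 4 in every array. The part of these tissues in the linker values was not tested.

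**Figure D3:**
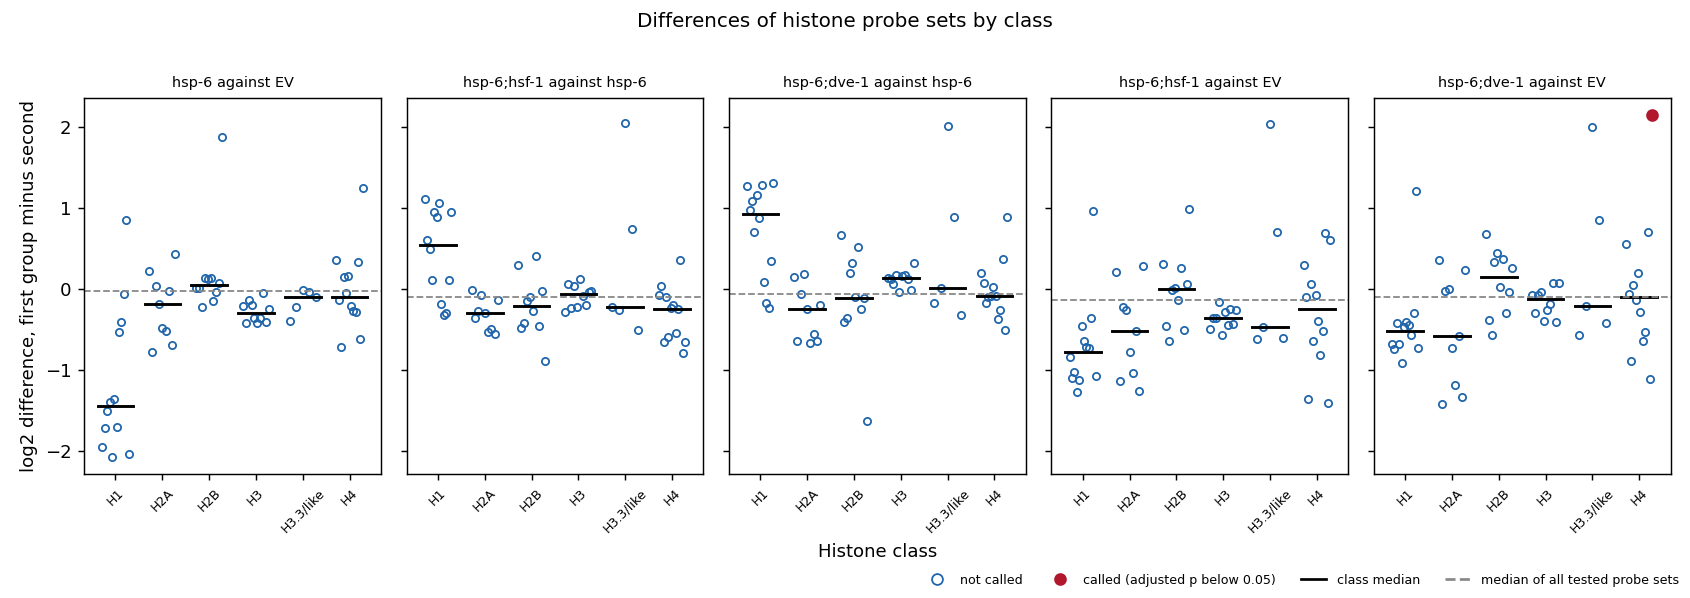
Log2 difference of each tested histone probe set (points, by histone class) in 5 comparisons, the first-named group minus the second, with a bar for the class median and a dashed line for the median of all 12057 tested probe sets. H1 points lie lowest in the hsp-6 RNAi against EV panel (class median -1.45), and the single filled point is the H4 probe set called in dve-1-labelled double RNAi against EV. The H3.3 points include his-70, whose hsp-6 RNAi and EV values lie at the bottom of the scale.

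Most core histone probe sets differed little between groups. Over the 41 core probe sets the median difference was -0.22 with hsf-1 double RNAi against hsp-6 RNAi, -0.04 with dve-1-labelled double RNAi against hsp-6 RNAi, and -0.14 with hsp-6 RNAi against EV, beside -0.10, -0.06 and -0.02 over all tested probe sets. Against EV the medians were -0.28 with hsf-1 double RNAi and -0.07 with dve-1-labelled double RNAi, beside -0.13 and -0.10 over all. The hsf-1 double RNAi arrays lay below the EV arrays without overlap for 23 of the 58 histone probe sets, or 39.7%, and the share over all tested probe sets was 22.3%. With dve-1-labelled double RNAi this held for 18 of 58, or 31%, and the share over all was 18.2%. These counts include 8 and 3 linker probe sets.

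The called H4 probe set, with the suffix for several transcripts of a family, lists his-10, his-26 and his-14. These genes lie in the largest group of neighbours, 13 genes that run from his-16 to his-42. The probe set read 7.22, 6.17 and 8.01 with hsf-1 double RNAi, 8.34, 8.84 and 8.86 with dve-1-labelled double RNAi, 8.14, 7.03 and 8.18 with hsp-6 RNAi, and 6.53, 6.45 and 6.62 with EV. The dve-1-labelled arrays were above all others, the hsp-6 RNAi arrays were above EV, and the hsf-1 double RNAi arrays overlapped both hsp-6 RNAi and EV. It rose by 2.15 (SE 0.43, 4.43-fold, limma adjusted p = 0.036) in dve-1-labelled double RNAi against EV, with means of 8.68 ± 0.29 and 6.53 ± 0.08 (SD, n = 3 each). The F test over the 4 groups gave a limma adjusted p of 0.043. With hsp-6 RNAi against EV the difference was 1.25 (SE 0.43, limma adjusted p = 0.13), and between the double RNAi groups, hsf-1 first, it was -1.54 (SE 0.43, limma adjusted p = 0.64). The call against EV held in 13 of 23 alternative analyses and was lost in 10, where the adjusted p reached 0.13. Leaving out a single array ended the call when the array was EV replicate 1, 2 or 3, hsp-6 RNAi replicate 1 or 3, hsf-1 double RNAi replicate 1, or dve-1-labelled replicate 1 or 2. The difference itself lay between 2.05 and 2.32 in the 23 alternatives.

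The H2B probe set listing his-44, his-11 and his-15, genes of the same neighbour group, was highest with hsp-6 RNAi instead. It read 4.98, 3.98 and 6.98 with hsf-1 double RNAi, 4.31, 5.43 and 4.01 with dve-1-labelled double RNAi, 6.40, 5.24 and 6.96 with hsp-6 RNAi, and 3.95, 4.38 and 4.65 with EV. Its hsp-6 RNAi arrays were above all EV arrays, and the hsf-1 double RNAi arrays spanned 3 units. The difference of hsp-6 RNAi from EV was 1.87 (SE 0.70, limma adjusted p = 0.16), and that of dve-1-labelled double RNAi from hsp-6 RNAi was -1.62 (limma adjusted p = 0.19). When hsf-1 double RNAi replicate 3 and dve-1-labelled replicate 2 were left out the first difference passed the test (limma adjusted p = 0.029). In that setting 1681 of all 12057 tested probe sets passed for hsp-6 RNAi against EV. The H2A probe set listing his-43, his-12 and his-16 and the H3 gene his-42, from the same group, had hsp-6 RNAi differences from EV that were within the range of the other core histones. Over the 4 tested probe sets with genes from this group alone, the hsp-6 RNAi differences from EV ran from -0.24 to 1.87.

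Several H2A and H4 probe sets had negative differences against EV, and none passed the test. The H2A probe set listing his-33 and his-30 read 9.54, 9.39 and 8.66 with hsf-1 double RNAi, 9.14, 9.27 and 8.91 with dve-1-labelled double RNAi, 9.73, 9.43 and 10.09 with hsp-6 RNAi, and 9.49, 10.78 and 11.04 with EV. The dve-1-labelled arrays were below all EV arrays, and EV replicate 1 lay among the RNAi arrays. Against EV the differences were -1.25 with hsf-1 double RNAi (limma adjusted p = 0.097) and -1.33 with dve-1-labelled double RNAi (limma adjusted p = 0.075). his-61, an H2A gene of another neighbour group, differed by -1.13 (limma adjusted p = 0.13) and -1.42 (limma adjusted p = 0.088) in the same order.

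The H2A probe set with the highest mean, listing his-65, his-57 and his-47, read 10.93, 10.73 and 10.15 with hsf-1 double RNAi, 10.27, 10.83 and 10.30 with dve-1-labelled double RNAi, 11.11, 10.67 and 11.61 with hsp-6 RNAi, and 10.31, 12.28 and 12.34 with EV. EV replicate 1 was about 2 units below its 2 companions and at the level of the RNAi arrays. The differences from EV were -1.04 with hsf-1 double RNAi (limma adjusted p = 0.17) and -1.18 with dve-1-labelled double RNAi (limma adjusted p = 0.15). EV replicate 1 was the lowest EV array for all 9 H2A probe sets, and for 27.4% of all tested probe sets. Without it, dve-1-labelled double RNAi against EV had 2 histone probe sets called in place of 1, namely those listing his-65, his-57 and his-47 and his-33 and his-30, and the H4 call was lost. The F test then called 3, the third being his-61. Over all 12057 tested probe sets, 46 were called in that comparison and 373 in the F test without that array.

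**Figure D4:**
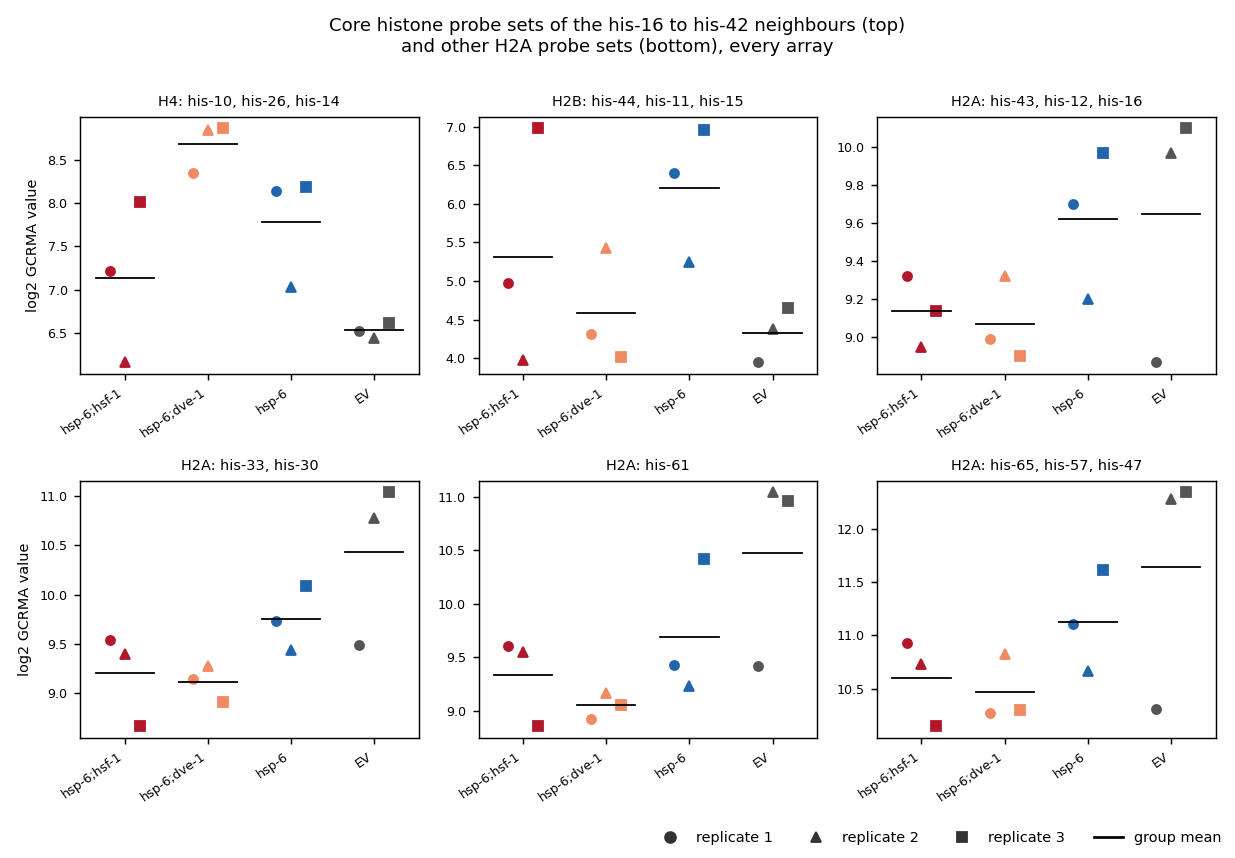
Log2 GCRMA values of 6 core histone probe sets, 1 panel each, in every array of the 4 RNAi groups, with the marker shape giving the replicate and a bar the group mean of 3 arrays. The H4 panel (his-10, his-26, his-14) has all dve-1-labelled arrays above 8.3 and all EV arrays below 6.7, and in the H2A panels EV replicate 1 (circle) lies well below the 2 other EV arrays.

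Among H4 genes, his-37 had the highest mean and differences of the opposite sign. It read 11.40, 11.15 and 12.09 with hsf-1 double RNAi, 11.62, 11.85 and 11.18 with dve-1-labelled double RNAi, 11.28, 11.07 and 11.21 with hsp-6 RNAi, and 10.78, 11.08 and 10.69 with EV. Both double RNAi groups lay above EV without overlap, by 0.69 with hsf-1 double RNAi and 0.70 with dve-1-labelled double RNAi (limma adjusted p = 0.12 for each). his-37 was called against EV with hsf-1 double RNAi when replicate 2 of that group was left out, and with dve-1-labelled double RNAi when hsf-1 double RNAi replicate 3 was. In those settings 1047 and 900 of all 12057 tested probe sets were called. his-67, a further H4 gene, read 6.73, 7.06 and 5.44 with hsf-1 double RNAi, 6.44, 6.97 and 6.69 with dve-1-labelled double RNAi, 7.33, 6.69 and 7.58 with hsp-6 RNAi, and 6.96, 7.75 and 8.73 with EV. Its differences from EV were -1.40 with hsf-1 double RNAi and -1.11 with dve-1-labelled double RNAi (limma adjusted p = 0.12 and 0.18), with arrays that overlapped. H4 genes in different places of the genome thus had differences of both signs in the same arrays, none of these past the threshold. The 12 tested H4 probe sets ranged from -1.40 to 0.69 with hsf-1 double RNAi against EV and from -1.11 to 2.15 with dve-1-labelled double RNAi against EV.

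The other H2B and the H3 probe sets had smaller differences from EV. The H2B probe set with the highest mean, listing his-66, his-58 and his-48, read 10.03, 9.92 and 9.30 with hsf-1 double RNAi, 9.79, 9.84 and 9.82 with dve-1-labelled double RNAi, 10.44, 9.53 and 10.56 with hsp-6 RNAi, and 10.22, 10.27 and 10.69 with EV. Both double RNAi groups were below EV without overlap, by -0.64 (limma adjusted p = 0.16) with hsf-1 double RNAi and -0.57 (limma adjusted p = 0.21) with dve-1-labelled double RNAi. The H3 probe set with the highest mean, listing his-27, his-17 and his-49, read 11.18, 10.59 and 10.61 with hsf-1 double RNAi, 11.36, 11.20 and 11.06 with dve-1-labelled double RNAi, 11.31, 10.75 and 11.16 with hsp-6 RNAi, and 11.45, 11.19 and 11.21 with EV. Its groups overlapped except hsf-1 double RNAi, whose arrays were all below EV. All 10 tested H3 probe sets had a negative difference with hsp-6 RNAi against EV, between -0.42 and -0.05, and with hsf-1 double RNAi against EV, between -0.57 and -0.16. One of these lists 14 of the H3 genes at once, so the 10 are not independent readings.

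The H3.3 and H3-like genes included one gene with values near the bottom of the scale, his-70. his-72, an H3.3 gene, had 2 probe sets. The higher one read 11.92, 11.64 and 11.43 with hsf-1 double RNAi, 12, 11.75 and 12.03 with dve-1-labelled double RNAi, 12.13, 11.61 and 12.02 with hsp-6 RNAi, and 12.13, 12.10 and 12.18 with EV. The other read 9.57, 9.43 and 9.21 with hsf-1 double RNAi, 9.64, 9.14 and 9.57 with dve-1-labelled double RNAi, 9.76, 9.36 and 9.73 with hsp-6 RNAi, and 9.99, 9.93 and 10.12 with EV. For the second every RNAi array was below every EV array, by -0.61, -0.56 and -0.39 on average in that order of groups (limma adjusted p = 0.098, 0.11 and 0.25). his-74 read 10.94, 10.86 and 10.40 with hsf-1 double RNAi, 11.06, 10.77 and 10.93 with dve-1-labelled double RNAi, 11.40, 10.97 and 11.33 with hsp-6 RNAi, and 11.25, 11.10 and 11.66 with EV. It was lowest with hsf-1 double RNAi, whose difference from hsp-6 RNAi was -0.50 (SE 0.20, limma adjusted p = 0.15).

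his-70, an H3.3-like gene, was near the lowest deposited value of 2.16 in most arrays. It read 4.45, 2.37 and 5.99 with hsf-1 double RNAi, 4.39, 5.95 and 2.35 with dve-1-labelled double RNAi, 2.24, 2.21 and 2.21 with hsp-6 RNAi, and 2.22, 2.21 and 2.27 with EV. It was high in hsf-1 double RNAi replicates 1 and 3 and in dve-1-labelled replicates 1 and 2, and passed the filter only through those 4 arrays. The hsp-6 RNAi and EV arrays lie at the bottom of the scale, where values carry no order, so no difference or p-value is given for his-70. It is still part of the counts and medians over all histone probe sets. The counts at an unadjusted p under 0.05 include it for both double RNAi groups against hsp-6 RNAi. They also include it for hsf-1 double RNAi against EV. Its part in those counts is not a result.

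his-71, an H3.3 gene, was high in the same 4 arrays. It read 7.57, 6.48 and 8.68 with hsf-1 double RNAi, 8.12, 8.41 and 6.65 with dve-1-labelled double RNAi, 6.99, 6.45 and 7.08 with hsp-6 RNAi, and 6.89, 6.91 and 6.84 with EV. The 2 remaining double RNAi arrays were at or below the EV level, so the groups overlapped and the differences from hsp-6 RNAi were 0.74 and 0.89 (limma adjusted p = 0.42 and 0.34), hsf-1 double RNAi first.

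Sperm genes and muscle genes were also highest in those 4 arrays. The mean log2 value of the 34 tested sperm genes was 10.47, 8.99 and 10.64 with hsf-1 double RNAi, 9.90, 10.82 and 7.76 with dve-1-labelled double RNAi, 6.27, 3.85 and 6.20 with hsp-6 RNAi, and 5.96, 7.45 and 4.49 with EV. The summed level of the list, on the log2 scale, was 15.89 to 17.44 with hsf-1 double RNAi, 14.62 to 17.62 with dve-1-labelled double RNAi, 9.68 to 12.87 with hsp-6 RNAi, and 10.37 to 14.42 with EV. Against hsp-6 RNAi, limma called 29 of the 34 higher with hsf-1 double RNAi, where 2.91% of all tested probe sets were called higher, and 16 of the 34 higher with dve-1-labelled double RNAi, where 2.78% were. Part of the hsp-6 RNAi values of this list lay below the log2 4 of the filter, as the mean of 3.85 in replicate 2 shows. How many of the 34 passed the filter only through the double RNAi arrays was not tested, so these counts and sizes are a description. Among the largest with hsf-1 double RNAi were msp-45, msp-50 and msp-152, of the major sperm protein family, at 6.55, 6.11 and 5.89 (limma adjusted p = 0.022, 0.021 and 0.036). Others of that family also read 5.89, and its copies are close in sequence. Against EV limma called 0 of 34 in either double RNAi group, with 32 and 31 at an unadjusted p under 0.05, hsf-1 double RNAi first. Of all tested probe sets, 29.8% and 26.8% had such a p. Of the 48 genes of the list, 37 had a probe set of their own, and ssq-4, spe-9 and spe-38 were below 4 in all arrays. The mean log2 value of the 13 tested muscle genes, of 16 listed, was 10.03, 9.18 and 10.34 with hsf-1 double RNAi, 9.84, 10.18 and 8.84 with dve-1-labelled double RNAi, 8.41, 8.30 and 8.36 with hsp-6 RNAi, and 8.40, 8.76 and 8.57 with EV. Against hsp-6 RNAi and the same background, limma called 5 of 13 higher with hsf-1 double RNAi and 4 of 13 higher with dve-1-labelled double RNAi, with tni-1, tnt-2 and mup-2, which encode troponin subunits, the largest in both. They rose by 2.36, 2.07 and 2.03 with hsf-1 double RNAi (limma adjusted p = 0.02, 0.015 and 0.014) and by 2.12, 1.70 and 1.70 with dve-1-labelled double RNAi (limma adjusted p = 0.028, 0.022 and 0.019). Against EV limma called 0 and 2 of 13, beside 0% and 2.27% of all tested probe sets, hsf-1 double RNAi first. Beside 29.8% and 26.8% of all, 10 and 9 of these muscle genes had an unadjusted p under 0.05. Their summed level was 14.50 to 15.34 with hsf-1 double RNAi, 14.27 to 15.29 with dve-1-labelled double RNAi, 13.84 to 14.14 with hsp-6 RNAi and 13.90 to 14.17 with EV, and myo-2 and unc-22 were below 4 in all arrays. The part of sperm or muscle RNA in the his-70 and his-71 values was not tested.

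**Figure D5:**
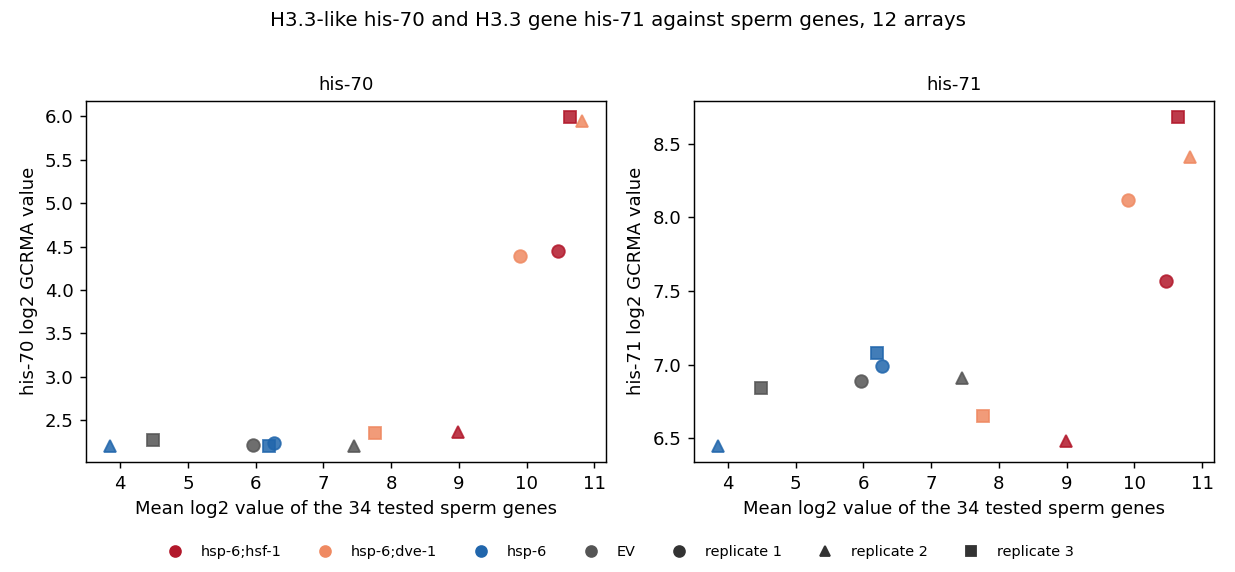
Log2 GCRMA value of his-70 (left) and his-71 (right) in each of the 12 arrays, against the mean log2 value of the 34 tested sperm genes in the same array, with colour for the RNAi group and marker shape for the replicate. The 4 arrays with a sperm mean of 9.90 or more are those in which his-70 exceeds 4 and his-71 exceeds 7.5.

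Calls were made for one histone variant with another name, htz-1, and for a few genes that work with histones or in DNA replication. htz-1, the H2A.Z variant, read, with its brighter probe set, 12.56, 12.73 and 12.30 with hsf-1 double RNAi, 12.59, 12.35 and 12.69 with dve-1-labelled double RNAi, 13.19, 13.09 and 13.30 with hsp-6 RNAi, and 12.98, 12.96 and 12.95 with EV. All hsp-6 RNAi arrays were above all others. The other htz-1 probe set averaged 7.90, 7.92, 8.2 and 8.0 in the same order of groups. On the brighter one htz-1 fell by 0.67 with hsf-1 double RNAi (SE 0.13, limma adjusted p = 0.018) and by 0.66 with dve-1-labelled double RNAi (SE 0.13, limma adjusted p = 0.018) against hsp-6 RNAi. hcp-3, the centromeric H3 variant, and its relative cpar-1 were called in none of the 6 comparisons by limma. Their differences with hsp-6 RNAi against EV were -0.38 (limma adjusted p = 0.38) for hcp-3 and -0.88 (limma adjusted p = 0.17) for cpar-1, and over the 6 comparisons each gene had an unadjusted p under 0.05 in 2. cdl-1, the stem-loop binding protein of histone mRNAs, differed by -0.47 and -0.50 from hsp-6 RNAi in the double RNAi groups, hsf-1 first (limma adjusted p = 0.31 and 0.29).

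hat-1, the acetyltransferase of newly made H4, read 5.92, 6.82 and 5.96 with hsf-1 double RNAi, 5.99, 5.23 and 6.69 with dve-1-labelled double RNAi, 7.90, 8.0 and 7.83 with hsp-6 RNAi, and 6.55, 6.31 and 6.28 with EV. The hsp-6 RNAi arrays were above all others by about 1 unit or more. hat-1 rose by 1.53 with hsp-6 RNAi against EV (SE 0.36, limma adjusted p = 0.048), and fell by 1.68 with hsf-1 double RNAi (limma adjusted p = 0.026) and by 1.94 with dve-1-labelled double RNAi (limma adjusted p = 0.015) against hsp-6 RNAi. It was the only one of 13 tested genes of histone supply and chaperones called in these 3 comparisons. Of all tested probe sets, 2.74%, 5.67% and 5.74% were called in them. The hat-1 values are thus those of 1 gene of the list. The hat-1 call for hsp-6 RNAi against EV held in 9 of 23 alternative analyses and was lost in 14, with limma adjusted p up to 0.17.

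DNA replication genes were called in few cases. Of 35 tested, limma called 0 with hsp-6 RNAi against EV, where mcm-6, pri-1 and tyms-1 had an unadjusted p under 0.05, and 2 in each double RNAi group against hsp-6 RNAi, cye-1 and tyms-1, both lower. That is near the share of all tested probe sets called in either direction, 5.67% with hsf-1 double RNAi and 5.74% with dve-1-labelled double RNAi, of which 2.76% and 2.96% were lower. The list medians were -0.32 with hsf-1 double RNAi and -0.29 with dve-1-labelled double RNAi against hsp-6 RNAi, and -0.17 with hsp-6 RNAi against EV. The oocyte and eggshell list had medians of -0.41 and -0.40 in the first 2 of these comparisons, with perm-2 called lower with hsf-1 double RNAi (-0.52, limma adjusted p = 0.036). The mean log2 value of the replication genes was 10.12, 10.20 and 9.49 with hsf-1 double RNAi, 10.14, 9.54 and 10.35 with dve-1-labelled double RNAi, 10.34, 10.26 and 10.37 with hsp-6 RNAi, and 10.53, 10.32 and 10.45 with EV. hsf-1 double RNAi replicate 3 and dve-1-labelled replicate 2 were the lowest of these arrays, and also for the oocyte list (11.41 and 11.49, the other arrays 12.15 to 12.75) and the germline list (9.25 and 9.45, the others 9.74 to 10.41). The part of oocyte and germline RNA in the replication values was not tested. cye-1, the cyclin E of S phase entry, averaged 6.74 ± 0.35 with hsf-1 double RNAi, 6.40 ± 0.56 with dve-1-labelled double RNAi, 8.18 ± 0.13 with hsp-6 RNAi and 7.64 ± 0.60 with EV (SD, n = 3 each). It fell by 1.44 (SE 0.35, limma adjusted p = 0.038) with hsf-1 double RNAi against hsp-6 RNAi, and its dve-1-labelled difference was -1.78 (SE 0.35, limma adjusted p = 0.02). tyms-1, thymidylate synthase, averaged 10.85 ± 0.18 with hsf-1 double RNAi, 10.87 ± 0.23 with dve-1-labelled double RNAi, 11.51 ± 0.09 with hsp-6 RNAi and 10.95 ± 0.08 with EV (SD, n = 3 each), and fell by 0.66 (limma adjusted p = 0.03) and by 0.63 (limma adjusted p = 0.034) in the same order. Of 22 mitotic chromosome genes, limma called 0 in all 6 comparisons. Against EV, 9 had an unadjusted p under 0.05 with hsf-1 double RNAi, 8 with dve-1-labelled double RNAi and 3 with hsp-6 RNAi. Against hsp-6 RNAi, 1 did in each double RNAi group. The shares over all tested probe sets were 29.8%, 26.8% and 21.6% against EV, and 24.7% and 24.2% against hsp-6 RNAi. The calls for htz-1, hat-1, cye-1 and tyms-1 were each lost without hsp-6 RNAi replicate 1 and without replicate 3, with adjusted p up to 0.14. Of the 23 alternative analyses, 11 lost the cye-1 call for hsf-1 double RNAi against hsp-6 RNAi, and 10 lost each tyms-1 call. The other calls of these genes against hsp-6 RNAi were each lost in 5 to 8.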

How the data were processed

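RNA of 12 whole-worm samples was measured on 1-colour Affymetrix arrays. The deposited log2 values were made by the authors with GCOS 1.4 and GCRMA, per the submitters' processing notes (release and options of GCRMA: not given in the sources used here). Precision is set by the number of arrays, as arrays have no read depth.

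Gene symbols came from the array annotation, and neighbouring genes from a RefSeq gene table (WBcel235). Histone classes were assigned by hand from gene knowledge, not from the files. The histone probe sets and the gene lists were chosen with earlier results of these data known. A test was made for each probe set above log2 4 in at least 3 arrays, other than the 77 controls. limma 3.58.1 in R 4.3.3 fitted the 4 groups together, with a trended variance (8 residual and 3.16 prior degrees of freedom) and Benjamini-Hochberg adjustment over all tested probe sets. The fit was tested on simulated data. Python 3.11.15, pandas 2.3.3 and matplotlib 3.10.9 made summaries and figures.

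Values per array are given for histone probe sets called in any comparison or in the F test, the highest-mean probe set of each class, and linker and H3.3 or H3-like probe sets; others were chosen after their values were seen. From the other lists described, up to 3 called genes a list by size and htz-1, hcp-3, cpar-1 and cdl-1 are named. Alternatives changed the filter, the scaling, the variance model, the arrays fitted and the replicates. Same-numbered samples had correlations of their deviations from -0.761 to 0.614 over 18 pairs, and differently numbered samples from -0.342 to 0.846 over 36. Such wide ranges cannot decide whether the numbers pair samples. The main fit has no block, and a fit with the replicate number as a block was one of the alternatives.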

Additional observations from a re-analysis of the deposited data

How the results depend on the processing

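The 1 called histone probe set, of H4 genes, kept its call in 13 of 23 alternatives and lost it in 10. For hsp-6 RNAi against EV the count was 0, and it was 1 with a filter at log2 6, 1 after centring on array medians, and 5 without hsf-1 double RNAi replicate 3 and dve-1-labelled replicate 2, the arrays with extreme first principal component scores. Leaving out single arrays gave 0 to 2. Over all tested probe sets these settings called 273 of 9854, 390 of 12057 and 1681 of 12057. With single arrays left out, 97 to 739 of 12057 were called. For dve-1-labelled double RNAi against hsp-6 RNAi the count was 1 without the same 2 arrays, and 0 to 1 over single arrays left out. Over all tested probe sets these were 771 and 101 to 1242. For hsf-1 double RNAi the range over single arrays left out was 0 to 1 against hsp-6 RNAi and 0 to 1 against EV. Over all tested probe sets these ranges were 35 to 1433 and 0 to 1047. The 1 against hsp-6 RNAi over single arrays left out was his-70 in both cases, which lies at the bottom of the scale with hsp-6 RNAi. For dve-1-labelled double RNAi against EV the count of 1 became 0 with no filter and 0 with hsp-6 RNAi replicates 1 and 3 averaged. It was 0 to 3 over single arrays left out. Over all tested probe sets these were 83 of 22548, 74 of 12057 and 43 to 1038 of 12057. The called probe set carries the family suffix, so a count among probe sets with neither suffix could only be 0. The F test count of 1 became 0 with no filter, with those replicates averaged and after a further quantile normalization. It was 0 to 3 over single arrays left out. Over all tested probe sets the F test called 330 of 22548, 141 of 12057, 886 of 12057 and 139 to 1551 of 12057. A fit with the replicate number as a block gave the same counts as the fit without it, 1 for dve-1-labelled double RNAi against EV and 1 for the F test, and 0 elsewhere. With that replicate block the hat-1 calls ended for hsp-6 RNAi against EV (limma adjusted p = 0.086) and for hsf-1 double RNAi against hsp-6 RNAi (0.058), as did that of cye-1 for hsf-1 double RNAi (0.074) and those of tyms-1 for hsf-1 (0.067) and dve-1-labelled (0.07) double RNAi, each against hsp-6 RNAi. The other calls of htz-1, hat-1 and cye-1 held with it. One hil-7 difference of hsf-1 double RNAi from hsp-6 RNAi, 0.11, ranged from -0.17 to 0.38 over single arrays left out, being -0.17 without hsp-6 RNAi replicate 2 and -0.14 without hsf-1 double RNAi replicate 1. The hil-5 difference of hsp-6 RNAi from EV, -0.06, ranged from -0.15 to 0.08, being 0.08 without hsp-6 RNAi replicate 2 and 0.06 without EV replicate 3. Leaving out arrays or probe sets makes the fit smaller, and beyond that the cause was not tested.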

Other observations

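One probe set lists 17 gene symbols, of which 12 are histone genes, and was therefore not counted as a histone probe set. It read 6.08, 5.98 and 6.07 with hsf-1 double RNAi, 6.07, 6.61 and 6.07 with dve-1-labelled double RNAi, 6.20, 5.93 and 6.07 with hsp-6 RNAi, and 5.46, 6.07 and 6.07 with EV.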
